A study of Homo sapiens with 8 samples.

Results

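The genes of complement, blood clotting and fibrinolysis were examined in HepG2 cells that overexpressed EDN1. They were chosen by symbol, as 43 named genes of these cascades out of the 24462 genes of the count table. HepG2 is an established line of human hepatocellular carcinoma, and EDN1 encodes the precursor of the vasoconstrictor peptide endothelin-1. RNA was sequenced from 4 libraries of HepG2 with EDN1 overexpression and 4 libraries of HepG2 labelled mock. All cells had the same culture medium with serum and antibiotics and no further treatment. The labels give neither the vector behind either group nor say if a group's libraries stem from separate cultures or clones, so the p-values reflect spread among these libraries alone, which may be technical.

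Most proteins of these cascades are made by hepatocytes and secreted into plasma as inactive precursors. Complement is started on a surface by the C1 or lectin proteases, is amplified at C3 and ends in a membrane pore built from C5 to C9, with regulators that protect host cells. Clotting is a chain of proteases, several of which need vitamin K, that turns fibrinogen into fibrin. It is held back by serpins, the protein C system and tissue factor pathway inhibitor, and plasmin later dissolves the clot.

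EDN1 itself was read at 228.0, 259.1, 417.8 and 548.8 CPM in EDN1 overexpression 1 to 4, against 2.26, 1.11, 1.04 and 1.38 CPM in mock 1 to 4. Every library therefore matched its label. CPM, the usual depth-scaled counts, were computed from TMM-scaled library sizes. The summed levels of markers and the limit given for 0 counts used total counts instead. Total counts ranged from 8571252 to 11686180 in EDN1 overexpression and from 8409173 to 14932385 in mock. All 12 hepatocyte markers listed for comparison were above the filter on low counts, with a summed level of 7273 to 11778 CPM in EDN1 overexpression and 8717 to 11285 CPM in mock. APOB and AHSG hold most of that sum. AFP, which encodes alpha-fetoprotein and is on that list, averaged 595.0 ± 295.0 CPM in EDN1 overexpression and 1027.8 ± 375.1 CPM in mock (SD, n = 4 each). Its log2 fold change was -0.79 (SE 0.35), with unadjusted p = 0.0470 and adjusted p = 1.00 by edgeR. The other markers on the list ran from -0.49 (FGB, unadjusted p = 0.184 by edgeR) to 0.14 (TTR). FGB had the smallest unadjusted p among them. The 7 endothelial markers together stayed between 0.350 and 0.941 CPM in EDN1 overexpression and between 0.458 and 0.562 CPM in mock, with KDR and CLDN5 at 0. The libraries also fell into 2 sets that no label gives, a second set of EDN1 3, EDN1 4 and mock 4 and a first set of the other 5. The sets were formed from these counts, along the first principal component (40.2% of the variance), on which mock 2 lay between them. Within the second set the lone mock library is assumed to vary like the others. All fold changes given for that set therefore rest on mock 4 as the only mock library.

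Of the 43 genes, 36 passed the filter on low counts and were tested with all 12577 genes that passed it. With the quasi-likelihood test of edgeR and p-values adjusted over all of these (Benjamini-Hochberg), 0 of the 36 rose and 0 fell, and the smallest adjusted p among them was 1.00. Over all genes the same test called 0.00795%, which is EDN1 alone. At an unadjusted p under 0.05 there were 4 of the 36 genes, C1S and C1R with higher values and MASP1 and C8A with lower values in EDN1 overexpression. The share at that threshold over all genes was 2.85%, with 2.03% higher and 0.827% lower. DESeq2 and limma voom also called 0 of the 36 and gave the same 4 genes at an unadjusted p under 0.05. That number was 2 without EDN1 1, without EDN1 3 or without mock 2, 7 without EDN1 4 (adding C5, CD59 and TFPI) and 6 with the replicate number as a block (adding PROC and VTN). The first library set alone gave 3 and the second 0. Fold changes were negative in 30 of the 36 and positive in 6, with a median log2 fold change of -0.09 against 0.00 over all genes tested, of which 49.7% were negative. Scaling by library totals only gave 23 negative and 13 positive, with 43.1% of all genes negative. Negative and positive were 18 and 18 without EDN1 1 or without EDN1 3, and 17 and 19 without mock 2. That median was 0.00 without EDN1 1, 0.00 without EDN1 3 and 0.01 without mock 2.

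**Figure D1:**
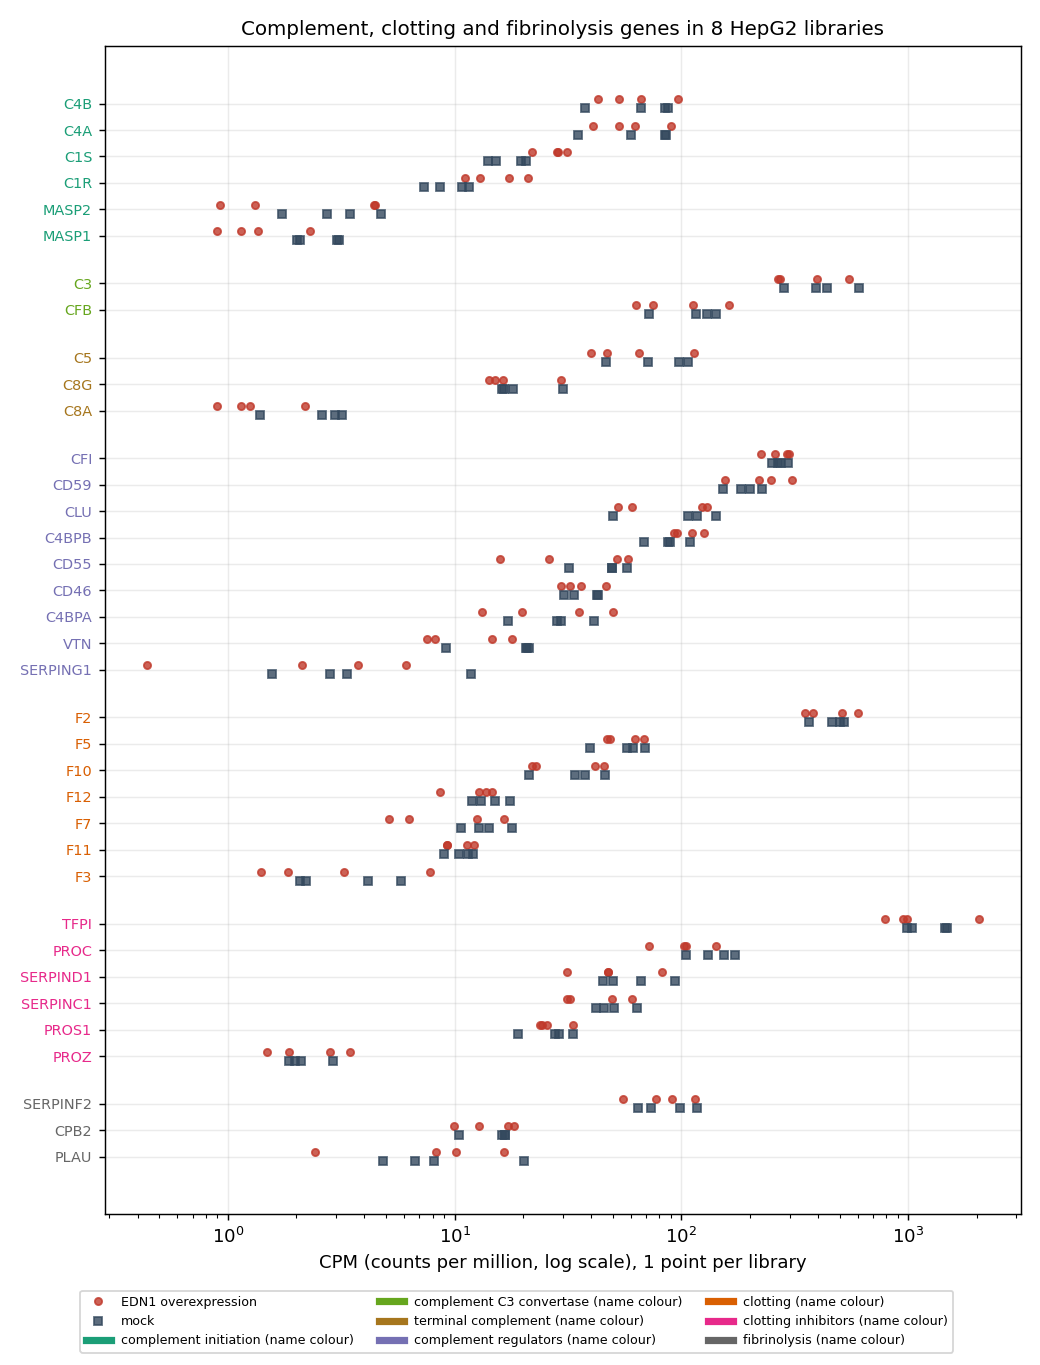
Level of each of the 36 tested genes in every library, in CPM on a log axis, with EDN1 overexpression as circles above mock as squares in each row. The groups overlap in every gene except C1S, and TFPI is the gene with the most counts.

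The interval of the fold change limits what could be seen. For 24 of the 36 genes (66.7%) it stayed inside a 2-fold change up or down, against 79.4% of all genes tested. Among the 36 it was narrowest for CFI, with a 95% interval of the log2 fold change from -0.33 to 0.30, and widest for SERPING1, from -2.27 to 0.96. The median SD of log2 CPM within groups was 0.46 over the 36 genes and 0.32 over all genes tested.

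**Figure D2:**
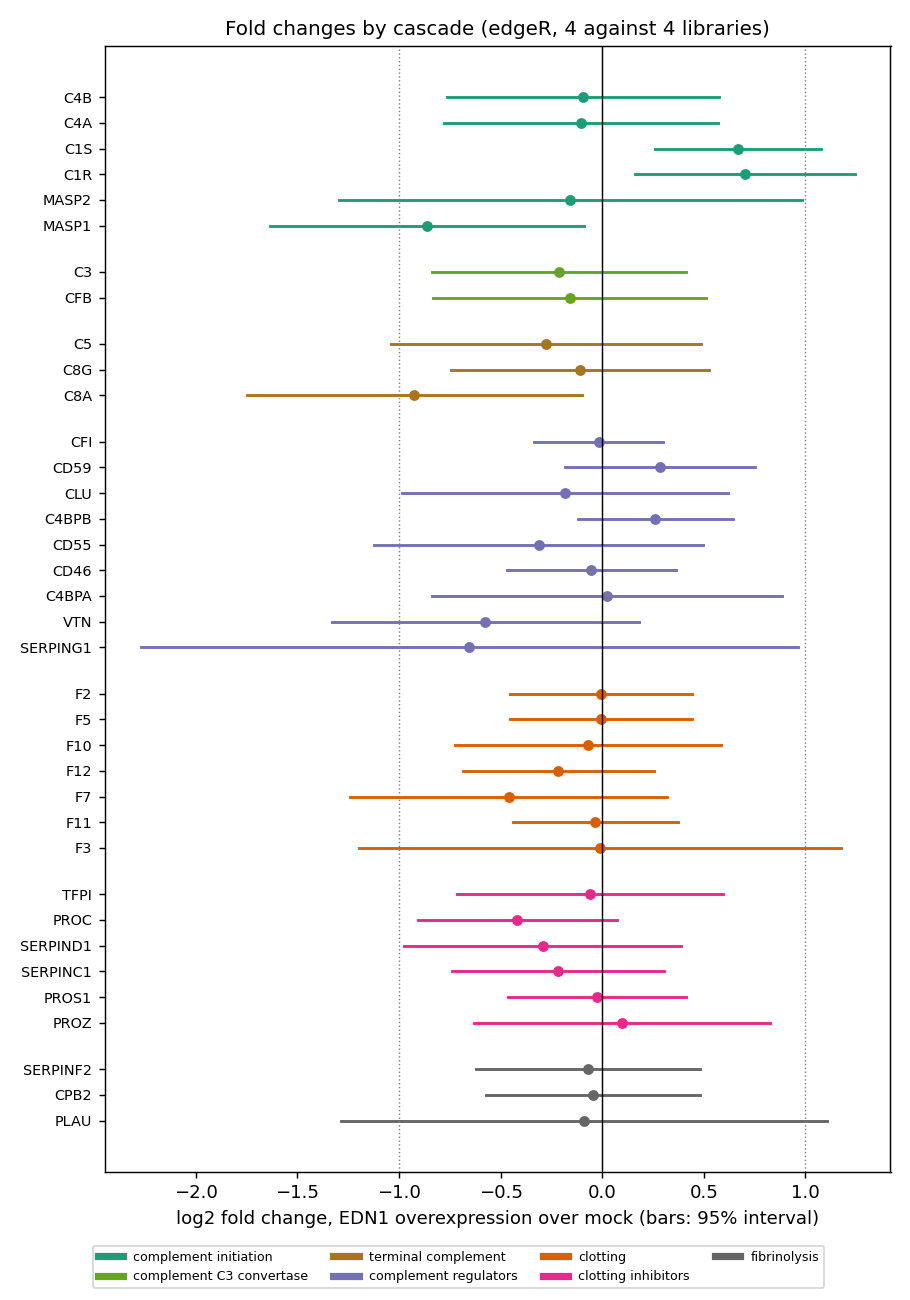
Log2 fold change of EDN1 overexpression over mock for the 36 tested genes, with 95% intervals as bars and dotted lines at a 2-fold change. The intervals of C1S and C1R lie above 0 and those of MASP1 and C8A below 0, before any adjustment for the 12577 genes tested.

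The genes that start complement include C1S and C1R, the 2 with higher values above. C1S encodes the protease of the C1 complex that cleaves C4 and C2. Its levels were 22.0, 28.6, 31.4 and 28.4 CPM in EDN1 overexpression 1 to 4, against 14.0, 20.6, 15.2 and 19.6 CPM in mock 1 to 4. Every EDN1 overexpression library was above every mock library, and C1S was the only one of the 36 genes whose groups did not overlap, where 1.38% of all genes tested were higher without overlap and 2.04% did not overlap in either direction. The means were 27.6 ± 3.99 CPM in EDN1 overexpression and 17.4 ± 3.24 CPM in mock (SD, n = 4 each). For C1S the log2 fold change was 0.67 (SE 0.18, 95% interval 0.26 to 1.08), a ratio of 1.59, with unadjusted p = 0.00440 and adjusted p = 1.00 by edgeR. Within the first library set the log2 fold change was 0.61 (SE 0.23). Within the second, where mock 4 is the only mock library, it was 0.60. Fibroblasts also make C1S and C1R. Of 8 fibroblast and stellate cell markers 3 were tested, and their summed level was 39.2 to 270.1 CPM in EDN1 overexpression and 34.6 to 192.0 CPM in mock, most of it ACTA2. ACTA2 stood at 38.6, 34.8 and 29.0 CPM in EDN1 3, EDN1 4 and mock 4, the second library set. In the first set it ran from 163.3 to 252.6 CPM. COL1A1 had 2 to 39 counts per library in EDN1 overexpression and 5 to 36 in mock, and PDGFRB had 13 to 63 and 36 to 70. The log2 fold changes were -0.09 (SE 0.69) for ACTA2, 0.42 (SE 0.74) for COL1A1 and -0.53 (SE 0.57) for PDGFRB. Of the markers not tested, LUM was at 0, and COL1A2, COL3A1, DCN and DES had at most 5 counts in any library. In bulk RNA a different number of cells of a type cannot be told apart from different RNA per cell.

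C1R encodes the protease that activates C1S, and the genes lie next to each other on chromosome 12 in the RefSeq gene table (GRCh38.p14). C1R was read at 11.1, 12.9, 17.5 and 21.0 CPM in EDN1 overexpression 1 to 4, against 8.58, 10.7, 7.30 and 11.6 CPM in mock 1 to 4. The groups overlapped only between EDN1 1 and mock 4. For C1R the log2 fold change was 0.70 (SE 0.24, 95% interval 0.16 to 1.24), with unadjusted p = 0.0158 and adjusted p = 1.00 by edgeR. The first library set alone gave 0.43 and the second 0.72. C1S and C1R stayed at an unadjusted p under 0.05 in all 8 fits that left out 1 library. In the first library set alone C1S did and C1R did not, and in the second neither did.

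**Figure D3:**
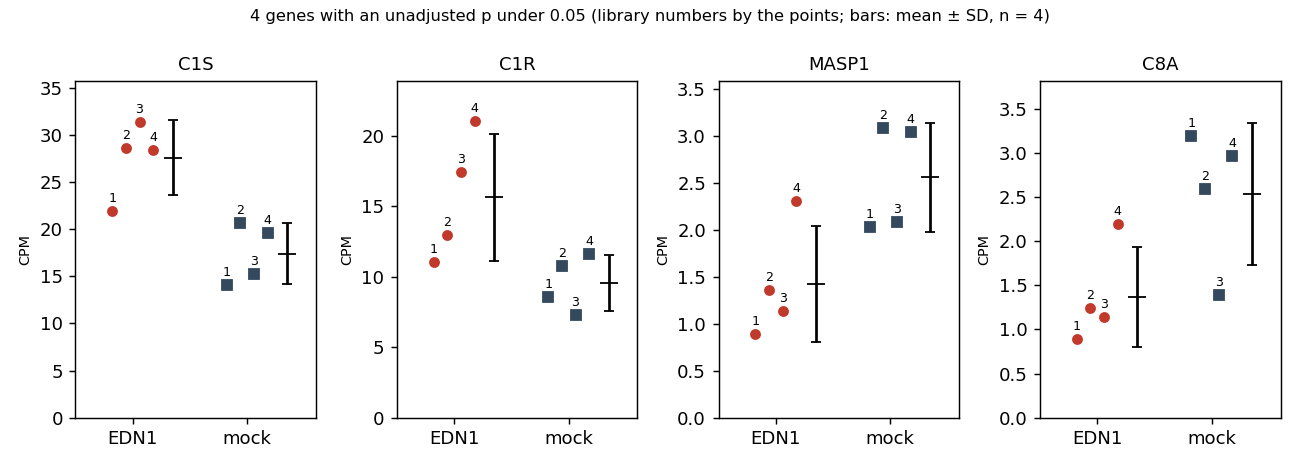
CPM of C1S, C1R, MASP1 and C8A in each library, numbered by replicate, with EDN1 overexpression left of mock and the mean ± SD (n = 4) beside the points. C1S does not overlap between the groups, and EDN1 4 is the highest of the EDN1 overexpression libraries in C1R, MASP1 and C8A.

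MASP1, a protease of the lectin pathway, had lower values in EDN1 overexpression and few counts. It was read at 0.895, 1.36, 1.14 and 2.31 CPM in EDN1 overexpression 1 to 4, against 2.03, 3.09, 2.09 and 3.04 CPM in mock 1 to 4. EDN1 4 lay inside the mock range and the other 3 below it. These values rest on 11 to 20 counts per library in EDN1 overexpression and 18 to 44 in mock. For MASP1 the log2 fold change was -0.86 (SE 0.35), with unadjusted p = 0.0319 and adjusted p = 1.00 by edgeR, and -1.09 and -0.84 within the first and second sets. Its unadjusted p stayed under 0.05 in 3 of the 8 fits that left out 1 library. MASP2, the lectin pathway protease that cleaves C4, stood at a log2 fold change of -0.16 (SE 0.51), with 0.30 in the first set and -0.62 in the second, and -0.50 without EDN1 1 and 0.12 without EDN1 4. It was read at 4.47, 4.42, 1.32 and 0.924 CPM in EDN1 overexpression 1 to 4 and at 2.73, 3.46, 4.75 and 1.73 CPM in mock 1 to 4. Its lowest values were those of EDN1 4, EDN1 3 and mock 4, the second library set.

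Promoter windows of C1R and MASP1 are shown because these genes were among the 4 with the smallest p. They run from 250 bases before to 50 after the first start listed, 5′ to 3′, from RefSeq on GRCh38.p14, and were found for 34 of the 43 genes. C1S, which had the smallest p, was among the 9 without a window and was not searched. Capitals mark matches on either strand to any of 8 motifs that were searched. TATAAA was searched as the core promoter element near the start. CCAAT was searched as the element bound by NF-Y. For the hepatocyte factors HNF1 and HNF4 the letters were GTTAAT for the first and CAAAGTCC for the other. For C/EBP and STAT factors they were TTGCNNAA for C/EBP and TTCNNNGAA for STAT. The letters for AP-1 were TGANTCA, and those for NF-kB were GGGNNTTCC.
C1R, chr12:7092396-7092695, minus strand: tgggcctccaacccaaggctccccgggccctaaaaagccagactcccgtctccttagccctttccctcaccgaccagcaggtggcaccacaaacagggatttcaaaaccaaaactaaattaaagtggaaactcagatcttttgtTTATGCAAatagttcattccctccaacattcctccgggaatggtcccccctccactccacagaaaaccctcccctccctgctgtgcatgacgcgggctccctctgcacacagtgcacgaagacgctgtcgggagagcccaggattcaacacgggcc
MASP1, chr3:187291688-187291987, minus strand: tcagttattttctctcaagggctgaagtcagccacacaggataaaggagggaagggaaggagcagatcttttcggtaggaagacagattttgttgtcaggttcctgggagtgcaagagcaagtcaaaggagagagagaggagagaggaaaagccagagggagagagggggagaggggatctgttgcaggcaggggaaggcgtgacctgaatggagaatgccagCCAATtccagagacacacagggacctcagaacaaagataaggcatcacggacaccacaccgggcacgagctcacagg
The C1R window held 1 match, to the C/EBP letters, which 10.6% of 27305 promoters hold, and the MASP1 window 1 match, to CCAAT, which 35.7% hold. Neither is shown to be bound.

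C4A and C4B encode near-identical forms of the component that C1S cleaves. Their counts were 502 and 527, 552 and 584, 602 and 602, and 780 and 840 in EDN1 overexpression 1 to 4. In mock 1 to 4 they were 450 and 482, 682 and 709, 516 and 572, and 1234 and 1230. The ratio of C4A to C4B lay between 0.902 and 1.00 in all 8 libraries. The sources used here do not say how reads shared by the pair were assigned, so each level is uncertain. The log2 fold changes were -0.10 (SE 0.31) for C4A and -0.10 (SE 0.30) for C4B.

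At the centre of complement, C3 and CFB overlapped between the groups and ranked the libraries in a similar order. C3, the component on which all pathways meet, was read at 266.6, 396.0, 272.6 and 550.5 CPM in EDN1 overexpression 1 to 4, against 283.4, 606.3, 393.0 and 439.7 CPM in mock 1 to 4. CFB, which supplies the protease of the alternative pathway convertase, was read at 63.0, 111.9, 75.0 and 162.1 CPM in EDN1 overexpression and 72.1, 142.5, 115.9 and 129.7 CPM in mock. In each gene the lowest 3 libraries were EDN1 1, EDN1 3 and mock 1, and the highest were EDN1 4 and mock 2. The log2 fold changes were -0.21 (SE 0.28) for C3, ranging over fits without 1 library up to -0.00 (without mock 2) and down to -0.47 (without EDN1 4), and -0.16 (SE 0.30) for CFB, ranging from 0.02 without EDN1 1 to -0.47 without EDN1 4.

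Terminal complement was only partly expressed. C5, whose cleavage starts the membrane pore, was read at 40.0, 65.0, 47.1 and 113.7 CPM in EDN1 overexpression 1 to 4, against 46.5, 106.5, 71.1 and 97.8 CPM in mock 1 to 4. The order of the libraries was close to that of C3 and CFB, and the log2 fold change was -0.28 (SE 0.34). Leaving out EDN1 4 gave -0.67 and leaving out EDN1 1 gave -0.10. C8G, which encodes the gamma chain of C8, had 14.2, 29.5, 15.1 and 16.4 CPM in EDN1 overexpression and 18.1, 16.6, 30.1 and 16.2 CPM in mock. A single library stood high in each group, EDN1 2 and mock 3. The log2 fold change of C8G was -0.11 (SE 0.29), and it was -0.41 without EDN1 2 and 0.14 without mock 3.

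C8A, which encodes the alpha chain of C8, was read at 0.895, 1.25, 1.14 and 2.19 CPM in EDN1 overexpression 1 to 4, against 3.20, 2.59, 1.39 and 2.97 CPM in mock 1 to 4. EDN1 1, 2 and 3 lay below all mock libraries and EDN1 4 above mock 3. The counts were 11 to 19 per library in EDN1 overexpression and 12 to 43 in mock. For C8A the log2 fold change was -0.92 (SE 0.37), with unadjusted p = 0.0314 and adjusted p = 1.00 by edgeR, and -1.19 and -0.86 within the sets. Its unadjusted p stayed under 0.05 in 2 of the 8 fits that left out 1 library. The promoter window of C8A, the gene with the most negative fold change of the 36, held 1 match to CCAAT, after the start.
C8A, chr1:56854547-56854846, plus strand: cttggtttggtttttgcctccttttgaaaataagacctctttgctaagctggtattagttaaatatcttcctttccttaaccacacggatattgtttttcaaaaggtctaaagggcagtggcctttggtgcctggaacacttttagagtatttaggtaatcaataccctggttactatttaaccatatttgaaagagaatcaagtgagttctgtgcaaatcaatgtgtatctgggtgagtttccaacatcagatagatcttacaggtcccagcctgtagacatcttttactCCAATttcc

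The other parts of the pore were near or below the limit of detection. C8B, next to C8A on chromosome 1 and encoding the beta chain, had 1, 1, 0 and 14 counts in EDN1 overexpression 1 to 4 and 3, 1, 3 and 6 in mock 1 to 4. C6 had 0 to 5 counts per library in EDN1 overexpression and 0 to 3 in mock, and C9, the subunit that closes the pore, had at most 1 count in any library. Where 0 was counted, up to 3 counts remain possible, or 0.201 to 0.357 CPM in the 8 libraries, with counting error alone in view. These 3 genes did not pass the filter and were not tested.

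The complement regulators were expressed without a call in either direction. CFI, the protease that inactivates C3b and C4b, was the steadiest, with 258.5, 293.2, 224.2 and 298.3 CPM in EDN1 overexpression 1 to 4 and 265.3, 295.7, 252.0 and 274.3 CPM in mock 1 to 4. Its highest library was 1.33 times its lowest, and its log2 fold change was -0.02 (SE 0.14). CD59, a membrane protein that blocks the pore, had 307.4, 219.0, 247.1 and 156.4 CPM in EDN1 overexpression and 226.9, 201.6, 183.5 and 152.6 CPM in mock, with a log2 fold change of 0.28 (SE 0.21), and 0.12 without EDN1 1. EDN1 1 and EDN1 3 lay above all mock libraries and EDN1 2 and EDN1 4 within their range. For the other membrane regulators the log2 fold change was -0.05 (SE 0.19) in CD46 and -0.31 (SE 0.37) in CD55. That of CD55 was -0.05 without EDN1 3 and -0.59 without EDN1 4, and EDN1 3 was its lowest library at 15.9 CPM.

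C4BPA and C4BPB encode the chains of C4b-binding protein, a cofactor for CFI, and are neighbours on chromosome 1. C4BPB was read at 111.4, 95.2, 125.2 and 92.4 CPM in EDN1 overexpression 1 to 4, against 108.7, 68.2, 87.5 and 89.3 CPM in mock 1 to 4. C4BPA was read at 13.2, 35.5, 19.8 and 49.9 CPM in EDN1 overexpression and 17.2, 29.5, 28.3 and 41.0 CPM in mock. EDN1 1, EDN1 3 and mock 1 were the 3 lowest libraries for C4BPA and the 3 highest for C4BPB. The log2 fold changes were 0.26 (SE 0.17) for C4BPB and 0.02 (SE 0.39) for C4BPA. Leaving out EDN1 4 gave -0.35 for C4BPA and leaving out EDN1 1 gave 0.27. The promoter windows of C4BPA and C4BPB are set side by side as those of a neighbouring pair.
C4BPA, chr1:207103983-207104282, plus strand: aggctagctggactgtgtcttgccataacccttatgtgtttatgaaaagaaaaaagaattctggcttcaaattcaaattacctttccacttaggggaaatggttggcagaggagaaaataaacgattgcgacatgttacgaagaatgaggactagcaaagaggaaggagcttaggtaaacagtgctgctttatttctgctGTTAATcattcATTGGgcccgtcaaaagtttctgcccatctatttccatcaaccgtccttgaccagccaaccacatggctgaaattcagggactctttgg
C4BPB, chr1:207088610-207088909, plus strand: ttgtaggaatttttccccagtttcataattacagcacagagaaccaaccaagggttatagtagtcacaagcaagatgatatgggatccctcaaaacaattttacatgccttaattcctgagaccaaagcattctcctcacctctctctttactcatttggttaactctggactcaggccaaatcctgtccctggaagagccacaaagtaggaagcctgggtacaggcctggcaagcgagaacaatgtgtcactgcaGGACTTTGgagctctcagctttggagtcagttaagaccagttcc
The C4BPA window held the HNF1 letters, found in 6.89% of all promoters, and CCAAT, and the C4BPB window held the HNF4 letters, found in 1.21%. Of the 34 windows, 6 held the HNF1 letters and 4 the HNF4 letters, and no matches overlapped in the windows shown. No match in any window is shown to be bound, and a part of the motifs in the order of the libraries was not tested.

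VTN, CLU and SERPING1 encode fluid-phase regulators: vitronectin, clusterin and C1 inhibitor. VTN was read at 14.6, 17.9, 7.54 and 8.20 CPM in EDN1 overexpression 1 to 4, against 20.9, 21.2, 20.7 and 9.19 CPM in mock 1 to 4. Its 3 lowest libraries were those of the second set. For VTN the log2 fold change was -0.58 (SE 0.34) over all libraries, -0.37 and -0.23 within the first and second sets. CLU also followed the sets, with 123.2, 129.9, 52.5 and 60.3 CPM in EDN1 overexpression and 107.0, 141.7, 117.0 and 49.9 CPM in mock, and its log2 fold change of -0.18 (SE 0.36) was 0.05 and 0.17 within them. SERPING1 ran from 0.438 CPM in EDN1 3 to 6.12 CPM in EDN1 4 and from 1.56 CPM in mock 1 to 11.9 CPM in mock 2. Its log2 fold change of -0.65 (SE 0.73) was 0.25 without mock 2 and -1.21 without EDN1 4.

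Of the 10 clotting factor genes, 7 were tested and 0 were called, with 0 positive and 7 negative fold changes. Scaling by library totals only gave 4 positive and 3 negative, and leaving out EDN1 1 or EDN1 3 gave 5 positive and 2 negative. F2, which encodes prothrombin, was read at 349.5, 511.1, 380.1 and 600.8 CPM in EDN1 overexpression 1 to 4, against 365.1, 520.1, 500.1 and 462.9 CPM in mock 1 to 4. Its log2 fold change was -0.01 (SE 0.20, 95% interval -0.45 to 0.44). F10, the factor that activates prothrombin, had 22.0, 41.5, 22.9 and 45.7 CPM in EDN1 overexpression and 21.2, 45.9, 37.6 and 33.9 CPM in mock, with a log2 fold change of -0.07 (SE 0.30). Both were low in EDN1 1, EDN1 3 and mock 1, as C3 was.

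F7, which starts clotting together with tissue factor and lies next to F10 on chromosome 13, had the most negative fold change of the clotting factors. It was read at 5.12, 16.6, 6.31 and 12.6 CPM in EDN1 overexpression 1 to 4, against 10.7, 14.2, 17.8 and 12.8 CPM in mock 1 to 4. EDN1 1 and EDN1 3 lay below the mock range and EDN1 2 and EDN1 4 within it. The log2 fold change was -0.46 (SE 0.35, unadjusted p = 0.220, adjusted p = 1.00 by edgeR), and it was -0.80 without EDN1 2 and -0.23 without EDN1 1. F12, a factor of the contact system, had 8.62, 12.8, 14.6 and 13.7 CPM in EDN1 overexpression and 11.9, 15.1, 13.1 and 17.6 CPM in mock, and its log2 fold change was -0.22 (SE 0.21), or -0.07 without EDN1 1. For the cofactor gene F5 the log2 fold change was -0.01 (SE 0.20), and for F11, of the contact system, -0.03 (SE 0.18). F3, which encodes tissue factor, was read at a mean of 3.58 ± 2.94 CPM in EDN1 overexpression and 3.56 ± 1.76 CPM in mock (SD, n = 4 each). Its log2 fold change of -0.01 (SE 0.54) was -0.71 without EDN1 2 and 0.34 without mock 1, and 0.40 and -0.37 in the first and second sets.

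F9, F13B and KNG1 did not pass the filter. F9, the factor lacking in haemophilia B, had 0 counts in all 8 libraries. F13B, the carrier subunit of factor XIII, had 0 or 1 count in each EDN1 overexpression library and 0 to 5 in mock. KNG1, which encodes kininogen, the cofactor of the contact system, had 3 to 7 counts in EDN1 overexpression and 1 to 5 in mock.

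Of the clotting inhibitors, TFPI, which blocks tissue factor with factor VIIa, had the most counts of the 43 genes. It held 25.3% to 41.0% of their counts in EDN1 overexpression and 28.5% to 36.6% in mock. TFPI was read at 786.2, 945.9, 984.0 and 2048.3 CPM in EDN1 overexpression 1 to 4, against 985.4, 1478.9, 1042.8 and 1453.2 CPM in mock 1 to 4. EDN1 4 stood above every other library. The other 3 EDN1 overexpression libraries lay below every mock library, EDN1 3 by little (984.0 CPM against 985.4 CPM in mock 1). For TFPI the log2 fold change was -0.06 (SE 0.30) over all libraries, -0.45 without EDN1 4 and 0.10 without EDN1 1, and -0.43 and 0.05 within the first and second sets.

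PROC, which encodes the vitamin K-dependent anticoagulant protein C, was read at 104.4, 141.8, 72.2 and 103.0 CPM in EDN1 overexpression 1 to 4, against 131.4, 172.3, 154.7 and 104.6 CPM in mock 1 to 4. EDN1 1, 3 and 4 lay below all mock libraries, EDN1 1 and EDN1 4 by little, and EDN1 2 within their range. The log2 fold change was -0.42 (SE 0.22, 95% interval -0.91 to 0.07), with unadjusted p = 0.0870 and adjusted p = 1.00 by edgeR. It was -0.27 without EDN1 3 and -0.31 and -0.27 within the first and second sets. SERPIND1, which encodes heparin cofactor II, had 47.4, 82.3, 31.3 and 47.2 CPM in EDN1 overexpression and 49.7, 94.1, 66.2 and 45.3 CPM in mock, with a log2 fold change of -0.29 (SE 0.31) that was -0.60 without EDN1 2 and -0.05 without mock 2. SERPINC1, which encodes antithrombin, had 32.1, 60.3, 31.3 and 49.7 CPM in EDN1 overexpression and 45.5, 42.0, 63.7 and 50.4 CPM in mock, with a log2 fold change of -0.22 (SE 0.24) that was -0.42 without EDN1 2 and -0.09 without mock 3. The groups overlapped in each of these genes. PROS1, the protein C cofactor, and PROZ, a cofactor in the inhibition of factor Xa, stood at log2 fold changes of -0.02 (SE 0.20) and 0.10 (SE 0.33), with mean levels of 26.9 and 2.31 CPM over the 8 libraries.

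Of the fibrinolysis genes, 3 were tested and 0 were called. PLAU, which encodes the plasminogen activator urokinase, was read at 16.5, 8.28, 10.2 and 2.43 CPM in EDN1 overexpression 1 to 4, against 20.1, 4.82, 6.72 and 8.08 CPM in mock 1 to 4. Its level was high in EDN1 1 and mock 1, where C3 and F2 were low, and lowest in EDN1 4. The log2 fold change was -0.09 (SE 0.54), and it was -0.52 without EDN1 1 and 0.52 without mock 1, and 0.21 and -0.36 in the first and second sets. SERPINF2, which encodes the plasmin inhibitor alpha-2-antiplasmin, had 76.9, 114.7, 55.0 and 91.0 CPM in EDN1 overexpression and 64.6, 117.5, 98.8 and 73.7 CPM in mock, with a log2 fold change of -0.07 (SE 0.25). CPB2, which encodes an enzyme that protects fibrin from plasmin, had 18.2, 17.2, 12.8 and 9.93 CPM in EDN1 overexpression and 16.7, 16.2, 10.4 and 16.7 CPM in mock, with a log2 fold change of -0.04 (SE 0.24) that was 0.29 and -0.56 within the first and second sets. PLG, which encodes plasminogen, was not tested, with 3 to 16 counts per library in EDN1 overexpression and 6 to 17 in mock.

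Levels of different genes were compared per kilobase of the gene length in the table. On this scale of mean CPM per kilobase over the 8 libraries, TFPI was first at 293.5, followed by F2 at 229.5, CFI at 125.0, C3 at 78.1 and PROC at 69.1. Ranked by CPM without the length, TFPI and F2 were again first, with C3 ahead of CFI. If reads come from the ends of transcripts, as with the type of kit named in the labels, dividing by length lowers long genes, so the order is given on both scales.

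The libraries were ordered in a similar way in many of these genes. Of the 36, 11 were lowest in EDN1 1, 11 in EDN1 3 and 7 in mock 1, where 10.7%, 16.3% and 12.7% of all genes tested were lowest. In turn 12 were highest in EDN1 4 and 11 in mock 2, where 17.5% and 16.4% of all genes were highest. The mean over the 36 genes of log2 CPM centred on each gene was -0.26, 0.23, -0.42 and 0.13 in EDN1 overexpression 1 to 4, against -0.11, 0.29, 0.09 and 0.05 in mock 1 to 4. EDN1 1 and EDN1 3 lay below all mock libraries, and EDN1 2 and EDN1 4 within the mock range. PLAU had another order, with 1.01, 0.03, 0.32 and -1.67 in EDN1 overexpression and 1.29, -0.73, -0.26 and -0.00 in mock on this centred log2 scale. SERPINF2, another fibrinolysis gene, was below its mean in EDN1 1, EDN1 3, mock 1 and mock 4. The mean log2 difference of the second over the first set, in a fit that held the group, was most negative for MASP2 (-1.54), F3 (-1.41), CLU (-1.22) and VTN (-1.11).

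**Figure D4:**
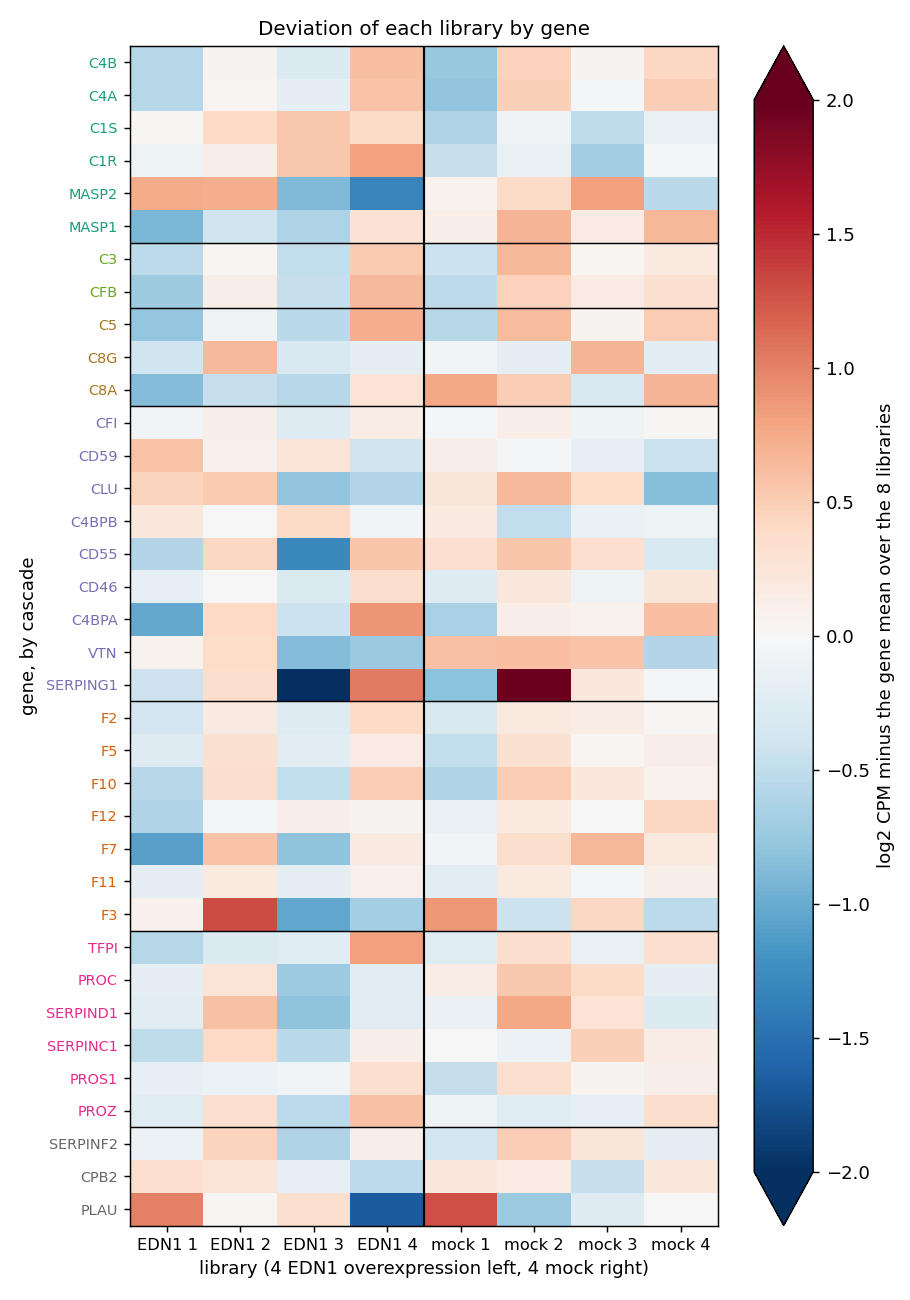
Log2 CPM of each tested gene minus its mean over the 8 libraries, with EDN1 overexpression in the left 4 columns and mock in the right 4. C3, CFB, C4A, C4B and C5 are low in EDN1 1, EDN1 3 and mock 1 and high in EDN1 4 and mock 2, while CLU and VTN are low in EDN1 3, EDN1 4 and mock 4.

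Of 64 other genes of these cascades, 34 were tested, and 0 rose and 0 fell by edgeR. Over all genes tested the share called was 0.00795%. At an unadjusted p under 0.05 there were 0 of the 34, against 2.85% of all genes tested. The median log2 fold change of the 34 was -0.09, with 13 positive and 21 negative, where 49.7% of all genes tested were negative. The thrombin receptor gene F2R had the smallest unadjusted p of the 34. Its mean was 31.5 ± 6.82 CPM in EDN1 overexpression and 23.1 ± 4.07 CPM in mock (SD, n = 4 each). The log2 fold change of F2R was 0.45 (SE 0.20), and 0.28 and 0.47 within the first and second sets. The fibrinogen chain genes FGA, FGB and FGG stood at log2 fold changes of -0.48 (SE 0.29), -0.49 (SE 0.35) and -0.47 (SE 0.21). ANXA2, which encodes a plasminogen-binding surface protein, had one of -0.40 (SE 0.24) and CFD, the protease that activates factor B, one of 0.35 (SE 0.22). The other 30 did not pass the filter. Among them, the C1q chain genes C1QA, C1QB and C1QC, and THBD, which encodes thrombomodulin, had 0 counts in all 8 libraries.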

How the data were processed

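The authors deposited 1 table of raw counts by gene, with gene lengths, for 8 libraries whose groups and numbers come from the sample titles. The labels' protocols name a Lexogen Quant-Seq kit. The submitters' processing notes name Bowtie2, edgeR and hg19. Versions, the counting tool, filters and any use of strand: not given in the sources used here. Overlapping and antisense genes can therefore not be told apart.

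Rows of 1 symbol were summed (25737 rows, 288 symbols on more than 1 row), except MARCH1 and MARCH2, whose rows stand for different genes. Genes were filtered by filterByExpr (minimum count 10) by group and scaled by TMM. Testing used the quasi-likelihood test of edgeR 4.0.16 in R 4.3.3, with the group as the only term, and Benjamini-Hochberg adjustment over all 12577 genes at 0.05. SE is the fold change over the square root of F. The test was checked on simulated counts, with means and dispersions taken from the genes that had passed the filter. The simulated counts were drawn independently for each library and held no library sets, and they do not check the filter. No 2 libraries agreed within sampling noise (chi-square per degree of freedom at least 6.16). Library sets are the split of the first principal component of log2 CPM (prior count 2) with the smallest sum of squares (1167, against 1203 with mock 2 moved to the second set).

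Alternatives were other scalings and filters, DESeq2 1.42.0, limma 3.58.1 voom, the replicate number as a block, each library left out, the sets, single rows of a symbol, C4A and C4B summed, and a threshold of 0.1. The genes and lists were chosen with earlier results of these data known. Values in every library are given for, in each group of genes, the 3 tested with the smallest unadjusted p and the one with the most counts, and for the genes of a pair or at the limit of detection beside them (MASP2, C4A, C4BPA, CLU, C8B), which were added after their values were seen. The other pathway genes named are from the 6 with the smallest unadjusted p (1 is not reported here), the fibrinogen genes and genes at 0 named after their values were seen. RefSeq promoters are on GRCh38.p14, and no coordinates of the count table were used.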

Additional observations from a re-analysis of the deposited data

Results flagged for a closer look

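In 5 of the 72 sets of 4 libraries examined (36 genes in 2 groups), 1 library lay far from the other 3, and chance flags about 1 in 20. TFPI stood at 2048.3 CPM in EDN1 4, against 984.0 CPM in the next EDN1 overexpression library. C8G stood at 29.5 CPM in EDN1 2, against 16.4 CPM in the next, and at 30.1 CPM in mock 3, against 18.1 CPM in the next. VTN was low in mock 4 at 9.19 CPM, against 20.7 CPM in the nearest mock library, and CPB2 was low in mock 3 at 10.4 CPM, against 16.2 CPM. VTN in mock 4 is the value that follows the second library set, and the part of the sets in the others was not tested.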

How the results depend on the processing

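Under all alternatives 0 of the 36 genes were called. EDN1 was called under each, and DESeq2 called 3 genes over all (EDN1, LGI1 and TMSB4X) against 1 by edgeR. The smallest adjusted p of any of the 36 was 0.496, for C1S by DESeq2. With the replicate number as a block, 1 gene was called over all, 0 of the 36 were called and their median log2 fold change was -0.12. Same-numbered libraries deviated together with correlations of 0.48, 0.15, -0.15 and 0.53 for numbers 1 to 4. EDN1 1 and EDN1 4 followed the mock library of their own number most closely, with 0.38 and 0.35 for the next. EDN1 2 and EDN1 3 followed another mock library more closely, at 0.43 and 0.52. EDN1 3 and mock 3 lie in different library sets, so these correlations cannot decide if the numbers pair the libraries. The median log2 fold change lay between -0.20 without EDN1 2 or EDN1 4 and 0.01 without mock 2. Of 790 fold changes of single genes under alternatives, 775 moved by less than their SE and 15 by more. The sign held under every alternative for 14 of the 36 genes, among them C1S, C1R, MASP1, C8A, C3, C5, VTN, F7 and PROC, and changed under at least 1 for 22. Putting mock 2 in the second set and using the sets as a term, chosen after seeing the data, called 1 gene over all and 0 of the 36. Depth limits the 7 untested genes and, of those tested, PROZ, C8A and MASP1, with at most 42, 43 and 44 counts in any library, and SERPING1 and MASP2, with as few as 5 and 8.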
